A study of Homo sapiens with 16 samples.

Results

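TRAIL and FAS ligand are death ligands of the tumor necrosis factor family, and the transcripts described here belong to the pathway that they switch on. The 9 genes are the ligand gene TNFSF10, which encodes TRAIL, the receptor genes TNFRSF10A, TNFRSF10B, TNFRSF10C, TNFRSF10D and FAS, and the genes CFLAR, CASP8 and BID, whose products act below the receptors. They were taken by gene symbol from a table of 35993 genes, and all 9 were among the 21297 genes that held enough counts to be tested. TNFRSF10C met that count minimum only through the treated TCCSUP cells, so its difference there is partly fixed by the filter.

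RNA was sequenced from 4 established human bladder cancer (BC) cell lines, 253J, J82, RT112 and TCCSUP, all labelled as WT. Cells of each line received CM-1758, a histone deacetylase inhibitor, for 48 h, or served as controls, which the sample labels give as vehicle control (DMSO) and the study elsewhere calls untreated. Each of the 8 groups held 2 libraries, 16 in all, and the libraries held between 22506431 and 32537104 counts. The dose was the IC50 of the line in question, and TCCSUP cells were grown in another medium (EMEM) than the other lines (DMEM), so that dose, medium and line cannot be told apart when the lines are compared.

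TRAIL binds the receptors encoded by TNFRSF10A (DR4) and TNFRSF10B (DR5), which recruit the adaptor FADD and the initiator caspase-8 through a death domain in the cytoplasm, and FAS forms a similar complex with its own ligand. The receptors encoded by TNFRSF10C (DcR1) and TNFRSF10D (DcR2) bind TRAIL but lack a working death domain and are known as decoys. CFLAR encodes c-FLIP, a relative of caspase-8 without its protease activity that competes for the complex, and BID is cut by caspase-8 into a fragment that carries the signal to the mitochondria.

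In each of the 4 lines, more of the 9 genes fell than rose with CM-1758. At an adjusted p under 0.01 (edgeR's quasi-likelihood test, Benjamini-Hochberg over all tested genes), 6 of the 9 were lower in treated 253J cells, where 18.1% of all tested genes were lower. In J82 cells 5 were lower against 13.3% of all tested genes, in RT112 cells 5 against 14.7% and in TCCSUP cells 5 against 17.2%. No gene of the 9 was called higher in 253J, J82 or RT112 cells, where 21.4%, 17.4% and 20% of all tested genes were. In TCCSUP cells 1, TNFRSF10C, was called higher against 23.7%, but it was tested only through the treated libraries of that line. TNFSF10, TNFRSF10A, CFLAR and BID were lower in all 4 lines, as were 3.69% of the tested genes, and none of the 9 was higher in all 4, as were 3.98%. The median log2 fold change of the 9 genes was -0.96, -0.62, -0.75 and -0.70 in the lines 253J, J82, RT112 and TCCSUP, against 0.10, 0.047, 0.12 and 0.20 over all tested genes. These medians take TNFRSF10C in J82 and RT112 and TNFRSF10D in RT112, at 0 counts in every library, as 0. Genes at 0 counts throughout a line could not be called there. TNFRSF10C entered the TCCSUP median at a fitted value of 8.06, from controls at 0 counts.

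**Figure D1:**
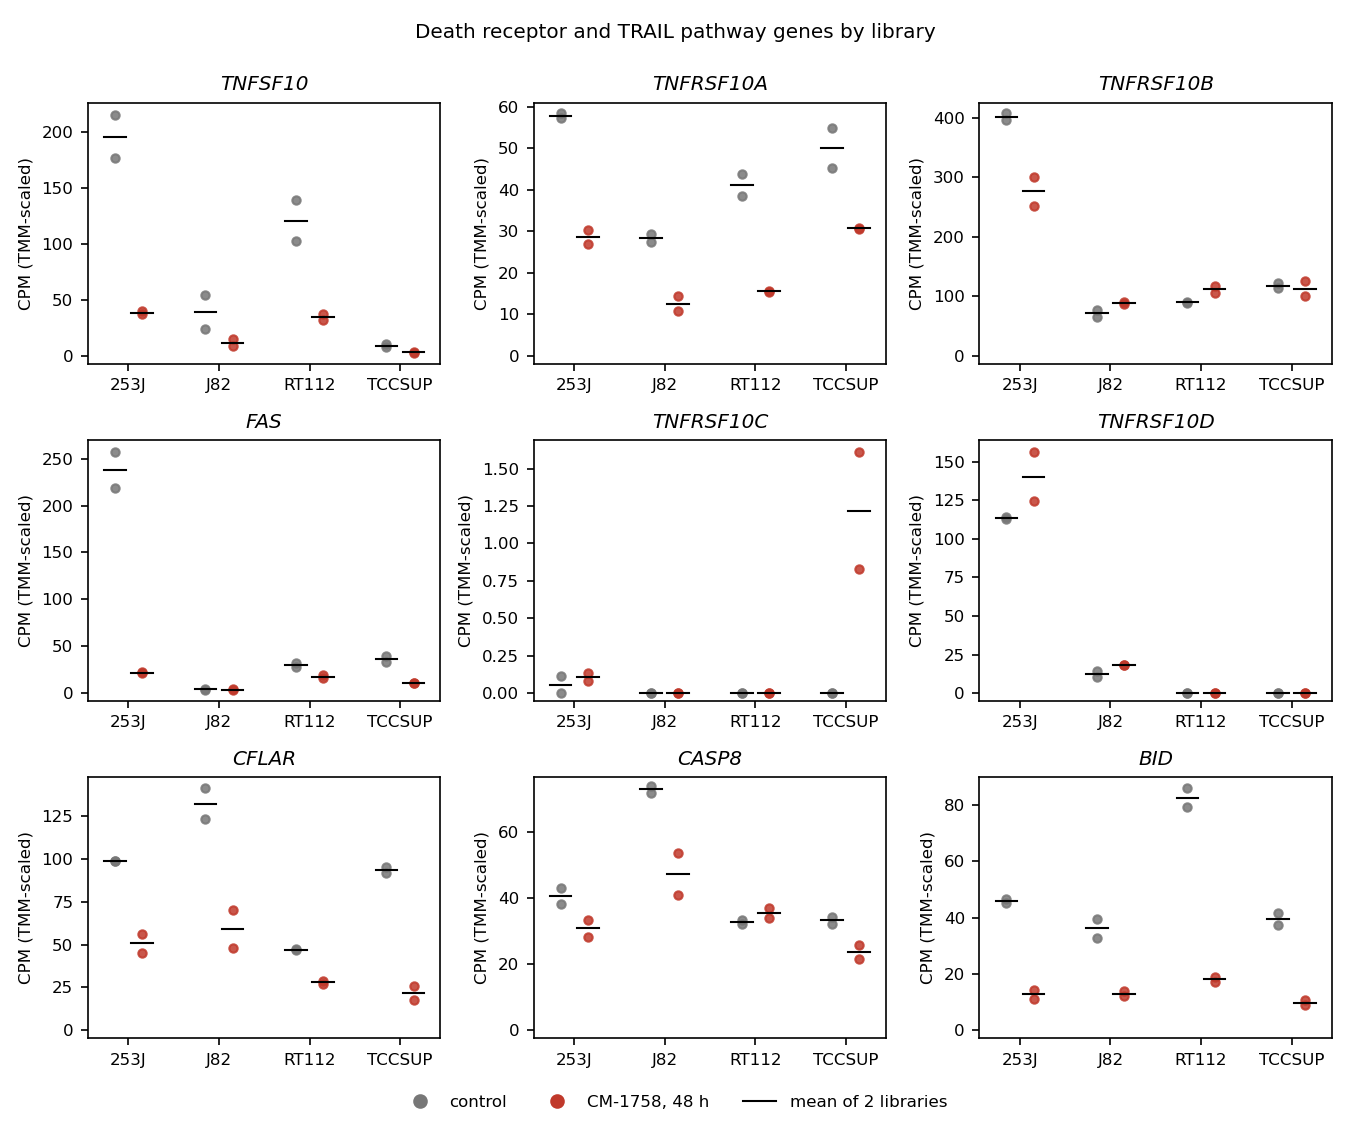
Level of each of the 9 genes in each library, in CPM (counts relative to the library size, scaled by the trimmed mean of M values, TMM), on a linear axis for each gene. Grey points are control libraries, red points are libraries of cells treated with CM-1758 for 48 h, and bars are means of 2 libraries. BID, TNFRSF10A, CFLAR and TNFSF10 are lower in the treated libraries of every line, while TNFRSF10B is not.

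Levels are given below as CPM with library sizes scaled by TMM. Each library is a bulk sample, so that fewer cells holding a transcript and less of it per cell cannot be told apart. The 15 urothelial and epithelial markers checked (keratins, uroplakins, GATA3, PPARG and others) were present at more than 3 counts for 8 to 10 genes in the control libraries of 253J and J82, for 14 in RT112 and for 11 to 12 in TCCSUP. In treated libraries 11, 11, 14 and 13 were, in the order 253J, J82, RT112 and TCCSUP. Their summed level was lower after treatment in 253J (3193 to 4344 CPM in controls, 1879 to 2371 CPM treated), RT112 (8239 to 8639 against 6308 to 7087 CPM) and TCCSUP cells (1339 to 1460 against 519 to 602 CPM) and overlapped in J82 cells (5970 to 8103 against 6973 to 7892 CPM). A sum can be set by a few abundant genes. Of the 15, 3, 3, 2 and 2 were called higher (21.4%, 17.4%, 20% and 23.7% of all tested genes) and 3, 1, 2 and 3 lower (18.1%, 13.3%, 14.7% and 17.2%). The 14 markers of blood and endothelial cells stayed far lower, and went from 0.652 to 0.881 CPM in controls to 2.97 to 4.02 CPM after treatment in 253J, from 4.62 to 5.77 CPM to 9.85 to 10.9 CPM in J82, from 3.37 to 3.76 CPM to 5.80 to 7.28 CPM in RT112, and from 21.5 to 21.6 CPM to 19.1 to 19.2 CPM in TCCSUP cells. In TCCSUP cells, though, 3 of the 14 exceeded 3 counts in controls and 7 to 11 after treatment. Of the 7 tested there, 4 were called higher and 1 lower. The part of these marker changes in the results below was not tested.

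TNFSF10, the ligand gene, fell in every line. In 253J cells its level was 176 and 215 CPM in the control libraries and 37.8 and 39.7 CPM in the treated ones, and in RT112 cells 139 and 103 CPM against 32.1 and 37.8 CPM. In J82 cells it was 54.2 and 23.9 CPM in the controls and 14.8 and 8.90 CPM after treatment, and in TCCSUP cells 10.3 and 8.27 CPM against 3.52 and 2.91 CPM. Treated and control libraries did not overlap in any line, although the J82 controls lay far apart. With 2 libraries a group, such statements on overlap are descriptions only, here and below. The share of all tested genes without overlap was not computed. The log2 fold change was -2.34 (SE 0.31, adjusted p = 1.61e-05) in 253J, -1.79 (SE 0.30, adjusted p = 0.000223) in RT112, -1.72 (SE 0.31, adjusted p = 0.000445) in J82 and -1.53 (SE 0.36, adjusted p = 0.00220) in TCCSUP cells (edgeR's quasi-likelihood test, Benjamini-Hochberg). Without control replicate 1 of J82, the library with the higher level, the change in J82 cells was -1.02 (adjusted p = 0.00566). The TCCSUP call was lost without control replicate 1 or without either treated library of that line, with an adjusted p of up to 0.0256 at log2 fold changes of -1.68 to -1.37, and with library size alone as the scaling (-1.21, adjusted p = 0.0123). The J82 call was lost when J82 was fitted alone (-1.71, adjusted p = 0.0107).

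Before treatment, the ligand transcript varied widely among the lines. The 253J controls held 5.02 times the level of J82 and 21.1 times that of TCCSUP, and RT112 controls held 13.0 times that of TCCSUP. The neighbours in the order 253J, RT112, J82 and TCCSUP differed (adjusted p of 0.000304 and 7.41e-05 by edgeR), except for 253J and RT112 (adjusted p = 0.0568). The order of the means was the same after treatment, from 38.8 CPM in 253J to 3.22 CPM in TCCSUP cells.

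TNFSF10 is also known as an interferon-inducible gene, and its upstream sequence is shown for that reason. Promoter windows of RefSeq (GRCh38.p14, the 250 bases before the annotated start) were found for 5 of the 9 genes, TNFSF10, FAS, CFLAR, CASP8 and BID. Where a gene had several starts, the window of the farthest upstream one was searched on both strands for 6 short motifs. The core of the interferon-stimulated response element (GAAA, any 2 bases, GAAA) stood in the TNFSF10 window and in no window of the other 4 genes, and 3.02% of all 35116 windows held it. It starts 187 bases before the RefSeq start of TNFSF10. The stretch is chr3:172523508-172523680 on the minus strand, in GRCh38.p14 and 5′ to 3′, without the 77 bases nearest to the start. Those bases are left out because the gene starts farther upstream in GENCODE v29 and includes them. The capitals mark the motif, which reads as its reverse complement on this strand.
TNFSF10: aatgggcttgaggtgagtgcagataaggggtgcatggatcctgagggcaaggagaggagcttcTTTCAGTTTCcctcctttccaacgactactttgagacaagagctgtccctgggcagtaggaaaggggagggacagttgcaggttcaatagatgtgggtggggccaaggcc

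In the farthest upstream windows, a TATA box (TATAAA, in 10.7% of all windows) was found for TNFSF10 and a GC box (GGGCGG, 42.6%) for FAS, CFLAR and CASP8. The TNFSF10 TATA box starts 31 bases before the RefSeq start, within the 77 bases that GENCODE v29 counts as part of the gene. The FAS window held an AP-1 site (TGANTCA, 6.57%) and the CASP8 window a gamma-activated sequence (TTCNNNGAA, 6.57%), while a CCAAT box (CCAAT, 32%) was in none of the 5. The windows of other starts differed: a GC box was in 4 of the 5 BID windows, and a TATA box and a CCAAT box were each in 1 of the 3 CASP8 windows. These matches are of letters only. No measurement of binding or chromatin was made in these libraries.

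TNFRSF10A, the DR4 receptor gene, fell by a moderate amount in every line. Its level in 253J cells was 57.1 and 58.5 CPM in the controls and 26.9 and 30.3 CPM after treatment, and in J82 cells 29.3 and 27.3 CPM against 14.3 and 10.7 CPM. RT112 cells went from 38.6 and 43.7 CPM to 15.6 and 15.5 CPM, and TCCSUP cells from 54.8 and 45.1 CPM to 30.8 and 30.7 CPM. No treated library reached the level of a control library of its line. The largest fall was in RT112 (log2 fold change -1.40, SE 0.15, adjusted p = 4.66e-06) and the smallest in TCCSUP cells (-0.70, SE 0.15, adjusted p = 0.00118), with -1.18 in J82 and -1.01 in 253J cells (edgeR). The TCCSUP call was lost without control replicate 1 (log2 fold change -0.56, adjusted p = 0.0242) or without either treated library of that line, and with library size alone as the scaling (-0.39, adjusted p = 0.0485). The test of a difference between the lines did not pass (adjusted p = 0.0604 by edgeR).

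TNFRSF10B, the DR5 receptor gene, did not follow TNFRSF10A. In 253J cells, which held the most of it, the level was 395 and 408 CPM in controls and 252 and 300 CPM in treated libraries. In J82 cells it was 77.8 and 66.2 CPM against 87.1 and 90.6 CPM, in RT112 cells 90.4 and 89.4 CPM against 106 and 118 CPM, and in TCCSUP cells 123 and 114 CPM against 125 and 100 CPM. The treated libraries thus lay below the controls in 253J, above them in J82 and RT112, and on either side of them in TCCSUP cells. Only the 253J difference was called (log2 fold change -0.54, SE 0.14, adjusted p = 0.00548 by edgeR). The 95% intervals of the log2 fold change ran from -0.0047 to 0.61 in J82, from 0.013 to 0.63 in RT112 and from -0.37 to 0.24 in TCCSUP cells. Over the 4 lines the common log2 fold change was 0.0061 with an interval of -0.26 to 0.27.

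The change of TNFRSF10B differed between the lines (adjusted p = 0.00672 by edgeR, a test that 36.6% of all genes passed), namely between 253J and J82 by -0.84 (19.1% of all tested genes differed in this pair) and between 253J and RT112 by -0.86 (19.2%) on the log2 scale. Both the 253J call and this difference depended on which libraries were used. The call was lost without control replicate 2, control replicate 3 or treated replicate 1 of 253J (log2 fold changes of -0.56, -0.52 and -0.42). It was lost with library size alone (-0.27) and with a minimum of 10 counts in every library (-0.46, adjusted p = 0.0103 by edgeR). It was also lost with replicate number as a block (-0.44). The 253J groups share only replicate number 3, so that value rests on 1 pair of libraries. The difference was lost in 10 of the 16 fits that left out a library (adjusted p of up to 0.0388). RHOBTB2, which overlaps TNFRSF10B on the opposite strand in GENCODE v29, held 127 to 1413 counts in the same libraries against 1820 to 10920 for TNFRSF10B, and reads of the pair cannot be told apart if strand was ignored in counting.

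FAS changed by very different amounts in the 4 lines. In 253J cells it dropped from 257 and 219 CPM to 22.1 and 21.2 CPM, and in TCCSUP cells from 39.6 and 33.1 CPM to 11 and 11.1 CPM. In RT112 cells the levels were 28.2 and 31.9 CPM in controls and 16.2 and 18.9 CPM after treatment, and in J82 cells 4.82 and 3.34 CPM against 4.87 and 2.88 CPM. Groups overlapped only in J82, the line with the least FAS. The log2 fold change was -3.46 in 253J (SE 0.21, adjusted p = 2.36e-08), -1.72 in TCCSUP (SE 0.20, adjusted p = 6.88e-06), -0.78 in RT112 (SE 0.20, adjusted p = 0.00485) and -0.078 in J82 cells (SE 0.24, adjusted p = 0.859) by edgeR. The RT112 call did not survive leaving out any 1 of that line's 4 libraries (adjusted p of up to 0.0508, log2 fold changes of -0.89 to -0.67), and was lost with library size alone (-0.63, adjusted p = 0.0219) and with a minimum of 10 counts in every library (-0.65, adjusted p = 0.0109).

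The FAS responses differed between lines (adjusted p = 2.23e-06 by edgeR's interaction test). The 253J fall exceeded that of J82 by 3.38, that of RT112 by 2.68 and that of TCCSUP by 1.74 on the log2 scale, and the fall in TCCSUP exceeded that of J82 by 1.64, while J82 and RT112 (adjusted p = 0.127) and RT112 and TCCSUP (adjusted p = 0.0217) were not separated. Of all tested genes 12.6% differed in response between J82 and TCCSUP and 12.7% between J82 and RT112. Control 253J cells held 58.3 times the FAS of J82 and 6.54 times that of TCCSUP cells, and the treated 253J mean of 21.7 CPM stood near the treated RT112 mean of 17.5 CPM. ACTA2 overlaps FAS on the opposite strand. It held 92 to 117 counts in the 253J libraries, against 559 to 7098 for FAS, but 2092 and 2213 counts in the TCCSUP controls and 54 and 57 after treatment, against 864 to 1001 and 282 to 294 for FAS. Its part in the TCCSUP difference of FAS was not tested, and the strand setting of the counting was not given in the sources used here.

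The decoy receptor genes were the only ones of the 9 without a called fall in any line, but their low counts limited this. TNFRSF10C, at 0 to 3 counts in the control libraries, had no level to fall from. TNFRSF10D had one only in 253J and J82 cells. TNFRSF10D was abundant only in 253J cells, at 113 and 114 CPM in controls and 125 and 156 CPM in treated libraries, and low in J82 cells, at 14.6 and 10.4 CPM against 18.3 and 17.9 CPM. The treated libraries lay above the controls in both lines, but the log2 fold changes of 0.31 (SE 0.24, adjusted p = 0.316) and 0.54 (SE 0.26, adjusted p = 0.109) did not pass edgeR's test. No RT112 library had a count of TNFRSF10D, which allows up to 0.117 CPM (3 counts) in the shallowest of them, and TCCSUP libraries had 0 and 7 counts in controls and 10 and 3 after treatment.

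TNFRSF10C was close to absent. All J82 and RT112 libraries were at 0 counts, 253J libraries had 0 and 3 counts in controls and 2 and 4 after treatment, and TCCSUP libraries had 0 and 0 in controls and 43 and 21 after treatment. Against a floor of 3 counts a library, the level in treated TCCSUP cells (1.22 ± 0.554 CPM, SD, n = 2) was at least 10.4-fold higher than in the controls. TNFRSF10C was tested only because these treated libraries met the count minimum, so its test in TCCSUP cells is no independent support for a rise. The difference was called by edgeR's quasi-likelihood test (adjusted p = 0.00204) but not by DESeq2 (adjusted p = 0.0910). It was lost by edgeR without either control library or treated replicate 1. Even there, TNFRSF10C reached 0.709 CPM per kilobase of exon against 27.2 for TNFRSF10B. The receptor genes of this family share sequence, and how reads that match several of them were counted is not given in the sources used here.

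**Figure D2:**
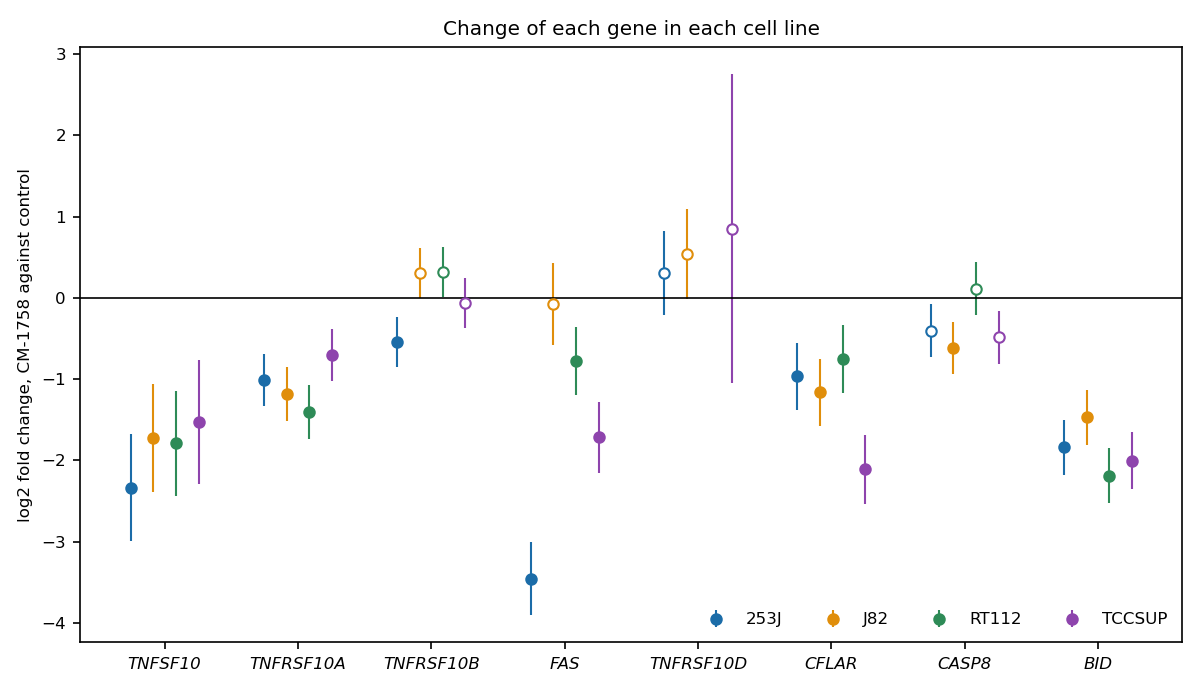
Log2 fold change of cells treated with CM-1758 against control for 8 genes in each line, from edgeR, with 95% intervals. Filled points were called at an adjusted p under 0.01 and open points were not. TNFRSF10C is left out in all lines, being at or near 0 counts in all but the treated TCCSUP libraries. The RT112 value of TNFRSF10D, at 0 counts, is left out too. TNFRSF10D in TCCSUP cells is shown although its libraries held only 0 to 10 counts. FAS in 253J cells shows the largest fall at -3.46.

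CFLAR, the gene of the caspase-8 inhibitor c-FLIP, fell in every line and most in TCCSUP cells. Its level there was 95.3 and 91.6 CPM in controls and 17.4 and 25.9 CPM in treated libraries, and in J82 cells 141 and 123 CPM against 70.0 and 48.1 CPM. In 253J cells it was 98.8 and 98.5 CPM against 56.3 and 45.0 CPM, and in RT112 cells 46.9 and 47.1 CPM against 27.0 and 28.9 CPM. Groups did not overlap in any line. The log2 fold change was -2.11 in TCCSUP (SE 0.20, adjusted p = 8.15e-07), -1.16 in J82 (SE 0.19, adjusted p = 0.000215), -0.96 in 253J (SE 0.19, adjusted p = 0.000680) and -0.75 in RT112 cells (SE 0.19, adjusted p = 0.00540) by edgeR.

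The fall of CFLAR differed between the lines (adjusted p = 0.00340 by edgeR), being greater in TCCSUP than in 253J cells by 1.15 (a pair in which 17.9% of all tested genes differed) and than in RT112 cells by 1.36 (17.3%) on the log2 scale. This difference passed an adjusted p of 0.01 with all libraries, but not without TCCSUP control replicate 1, control replicate 2 or treated replicate 1 (adjusted p of 0.0116 to 0.0271). The RT112 call was lost without any 1 of the 4 RT112 libraries (adjusted p of up to 0.0415), with relative log expression as the scaling (-0.67, adjusted p = 0.0113), with library size alone (-0.60, adjusted p = 0.0254) and with a minimum of 10 counts in every library (-0.62, adjusted p = 0.0132), and the 253J call without treated replicate 3 (log2 fold change -0.81, adjusted p = 0.0147).

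CASP8 itself moved less. In J82 cells, the line with the most, it went from 74.1 and 72.0 CPM to 53.9 and 41.0 CPM, and in 253J cells from 43.3 and 38.5 CPM to 33.5 and 28.4 CPM. TCCSUP cells held 32.4 and 34.4 CPM in controls and 21.7 and 26.0 CPM after treatment, and RT112 cells 33.6 and 32.3 CPM against 37.2 and 34.1 CPM. The treated libraries were below the controls in 3 lines and slightly above them in RT112. The J82 change was called (log2 fold change -0.62, SE 0.15, adjusted p = 0.00359 by edgeR), but was lost without J82 control replicate 1, control replicate 3 or treated replicate 3 (adjusted p of up to 0.0579), with library size alone (-0.47, adjusted p = 0.0220) and when J82 was fitted alone (adjusted p = 0.0504). The values were -0.40 in 253J (adjusted p = 0.0371), -0.48 in TCCSUP (adjusted p = 0.0148) and 0.11 in RT112 cells (adjusted p = 0.577), none of them called. CASP10, the initiator caspase gene that lies between CFLAR and CASP8, had log2 fold changes of -0.95 in 253J (adjusted p = 0.00214), -0.47 in J82, 0.098 in RT112 and -0.30 in TCCSUP cells, of which only the first was called.

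BID gave the steadiest result of the 9 genes. In RT112 cells, where it was most abundant, the level was 85.9 and 79.1 CPM in controls and 18.8 and 17.4 CPM in treated libraries, and in TCCSUP cells 41.7 and 37.3 CPM against 9.02 and 10.7 CPM. In 253J cells it was 46.7 and 45.0 CPM against 14.5 and 11.2 CPM, and in J82 cells 32.9 and 39.5 CPM against 13.9 and 12.3 CPM. Every treated library held less than any control library of any line. The log2 fold change was -2.19 in RT112 (SE 0.16, adjusted p = 9.30e-08), -2.0 in TCCSUP (SE 0.16, adjusted p = 1.79e-07), -1.84 in 253J (SE 0.16, adjusted p = 3.43e-07) and -1.47 in J82 cells (SE 0.16, adjusted p = 4.61e-06) by edgeR. These 4 calls held under all alternatives run, and the difference between lines did not pass (adjusted p = 0.0590). After treatment the means lay between 9.86 and 18.1 CPM, against 36.2 to 82.5 CPM before.

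Past 4-fold, the calls were the falls of FAS and TNFSF10 in 253J (3.5% of all tested genes were past 4-fold lower there and 9.43% higher), BID in RT112 (1.39% and 11.4%), and CFLAR and BID, both lower, and TNFRSF10C, higher, in TCCSUP cells (3.31% and 14.2%), with none in J82 (1.24% and 8.81%). TNFRSF10C was tested only through the treated TCCSUP libraries, so its call there is not independent of the filter. In a model with cell line and treatment as terms, 5 of the 9 genes had a common fall, against 15.3% of all tested genes, and none a common rise, against 22.1%. The common log2 fold changes of the 5 were -1.87 for BID (adjusted p = 9.62e-08), -1.85 for TNFSF10, -1.5 for FAS (adjusted p = 0.00449), -1.24 for CFLAR and -1.07 for TNFRSF10A by edgeR. For FAS and CFLAR this averages lines that differed. Leaving out 1 library at a time, the common value of FAS ran from -1.70 to -1.25, and its call did not hold in every such fit.

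Ratios of a pair of these genes within a library do not depend on how libraries are scaled, and 6 were compared by an exact permutation test over samples within lines (all arrangements, 2-sided, smallest p possible 0.00154). There were 1.40 to 2.94 CFLAR counts per CASP8 count in control libraries. These are raw counts, and the exons of CFLAR cover 20637 bases against 3936 for CASP8, so the ratio does not say which transcript was more abundant. In CPM per kilobase of exon, CFLAR stood below CASP8 in the controls of every line. The values were 4.78 against 10.4 in 253J, 6.39 against 18.6 in J82, 2.28 against 8.38 in RT112 and 4.53 against 8.48 in TCCSUP cells. This order rests on the union of all annotated exons of each gene, and which isoforms were present was not tested. In CPM without the length, CFLAR stood above CASP8 in these controls. In treated libraries the ratio of counts was 1.58 and 1.68 in 253J, 1.17 and 1.30 in J82, 0.728 and 0.847 in RT112, and 0.802 and 0.995 in TCCSUP cells. It fell in each of the 4 lines without overlap, by a mean of 0.91 on the log2 scale (exact permutation p = 0.00154, adjusted p = 0.00309 over the 6 ratios). BID per CASP8 also fell in each line, by a mean of 1.52 (adjusted p = 0.00309 by the exact permutation test), from 0.444 to 2.55 in controls to 0.258 to 0.509 in treated libraries.

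The balance of the receptor transcripts moved as well. TNFRSF10B to TNFRSF10A counts stood at 6.92 and 6.97 in 253J controls and 9.37 and 9.92 after treatment, and in the other 3 lines at 2.05 to 2.65 in controls and 3.28 to 8.46 after treatment. The ratio rose in each line by a mean of 1.08 on the log2 scale (exact permutation p = 0.00154, adjusted p = 0.00309). FAS to TNFRSF10B fell by a mean of 1.51 (exact permutation p = 0.00309, adjusted p = 0.00463), from 0.650 and 0.536 to 0.0878 and 0.0706 in 253J cells, and in J82 cells, where the groups overlapped, by 0.41. The other 2 ratios, of the decoy genes to TNFRSF10B, are not read as results, since TNFRSF10C had 0 counts in all J82 and RT112 libraries and TNFRSF10D in all RT112 libraries, so that the ratio there is set by the 0.5 added to the counts.

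**Figure D3:**
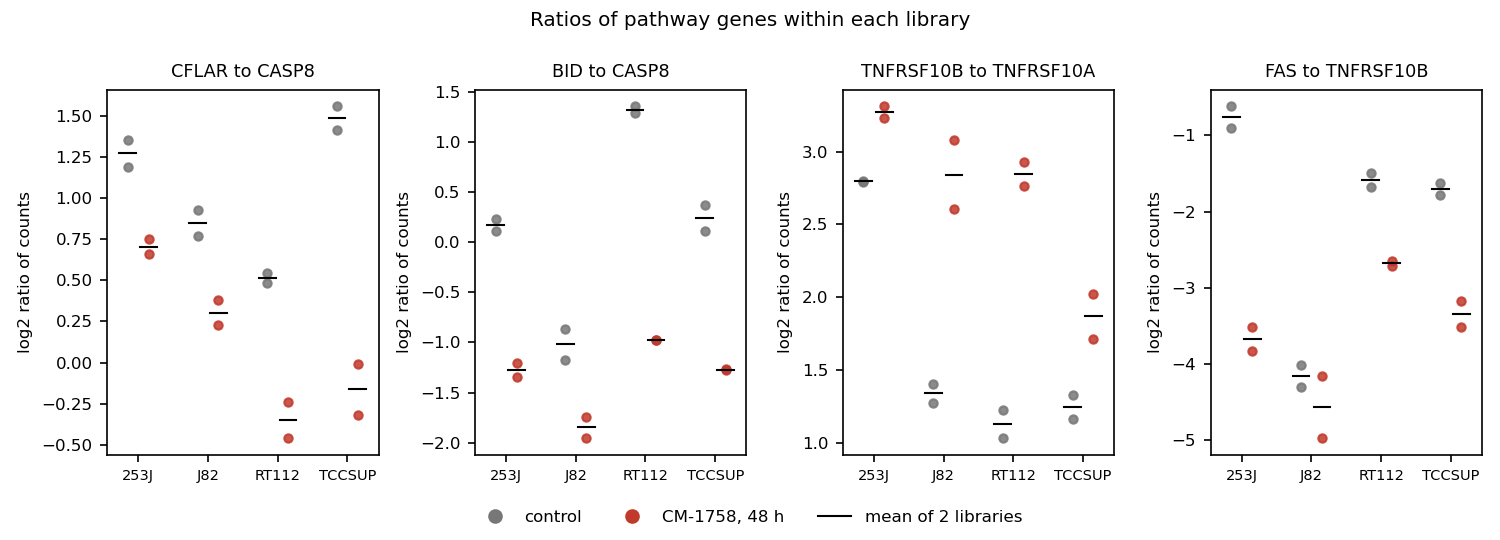
Log2 ratio of the counts of 4 pairs of genes in each library, by line, with grey points for control, red points for CM-1758 and bars for the mean of 2 libraries. The ratios of CFLAR and BID to CASP8 are lower and that of TNFRSF10B to TNFRSF10A higher in every treated library than in the controls of the same line, and FAS to TNFRSF10B overlaps in J82 cells.

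Between the control cells of the 4 lines, 8 of the 9 genes differed in level (adjusted p under 0.01 by edgeR), as did 69.9% of all tested genes. TNFRSF10C was the exception. For a pair of lines, 42.3% (253J and J82), 43.8% (253J and RT112), 41.7% (253J and TCCSUP), 41.9% (J82 and RT112), 36.5% (J82 and TCCSUP) and 41% (RT112 and TCCSUP) of all tested genes differed. TNFRSF10B was highest in 253J, 3.40 times its level in TCCSUP, and the neighbours TCCSUP and RT112 (adjusted p = 0.0327) and RT112 and J82 (adjusted p = 0.0772) were not separated. TNFRSF10D in 253J cells was 9.11 times its level in J82. TNFRSF10A spanned only 2.04-fold from 253J to J82, with 253J and TCCSUP (adjusted p = 0.254) and TCCSUP and RT112 (adjusted p = 0.131) not separated. CFLAR was lowest in RT112, with 2.81 times as much in J82, and J82, 253J and TCCSUP were not separated as neighbours (adjusted p of 0.0770 and 0.794). CASP8 was highest in J82, 1.79 times its level in 253J, and the other 3 lines were not separated (adjusted p of 0.0970 to 0.994). BID was highest in RT112, 1.80 times its level in 253J, and the other 3 were not separated (adjusted p of 0.0724 to 0.543).

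Compared between genes as CPM per kilobase of exon (GENCODE v29), TNFRSF10B was the most abundant TRAIL receptor transcript in all 4 control lines, at 96.9 in 253J, 28.5 in TCCSUP, 21.7 in RT112 and 17.4 in J82 cells. TNFRSF10A stood at 21.3, 18.4, 15.2 and 10.4 in the same order. FAS stood at 92.1 CPM per kilobase in 253J cells, beside 96.9 for TNFRSF10B, and was far below it in J82 cells, at 1.58. The decoy TNFRSF10D reached 32.1 in 253J cells, above TNFRSF10A, but 3.53 in J82 and 0.0379 in TCCSUP cells.

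Around the 9 genes, other members of the pathway moved in both directions. Of all tested genes, 21.4%, 17.4%, 20% and 23.7% were called higher and 18.1%, 13.3%, 14.7% and 17.2% lower in 253J, J82, RT112 and TCCSUP, with medians of 0.10, 0.047, 0.12 and 0.20, and the counts of the lists below are to be set against these shares. Of 11 tested genes for other ligands and receptors of the family, 1 was higher and 5 lower in 253J, 5 and 1 in J82, 3 and 3 in RT112, and 1 and 2 in TCCSUP cells. Leaving out genes at or under 3 counts in every library and taking those in 1 group only at their bound, their median log2 fold change was -1.04, 2.21, -0.49 and -0.22, and with fitted values of all 11 it was -0.57, 1.25, -0.40 and 0. The highest mean was that of NGFR, the low-affinity neurotrophin receptor, which was called past 4-fold higher in all 4 lines and rose from 3 and 6 counts to 514 and 631 in J82 cells and from 0 counts to 14 and 25 in 253J cells, at least 6.54-fold. The lowest was that of TNFRSF11B, osteoprotegerin, a soluble receptor that can also bind TRAIL. It fell by 4.03 in J82 (adjusted p = 7.55e-07), by 2.75 in RT112 and by 2.56 in 253J cells on the log2 scale by edgeR and was at 0 or 1 count in TCCSUP cells. TNFRSF1A, the tumor necrosis factor receptor, named after its values were seen, had log2 fold changes of -2.16, -1.49 and -1.93 in 253J, RT112 and TCCSUP cells, all called, and -0.31 in J82 cells (adjusted p = 0.281).

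Among 14 adaptors and regulators of the receptor complexes, 4 were higher and 2 lower in 253J, 2 and 4 in J82, 4 and 1 in RT112, and 2 and 2 in TCCSUP cells, with medians of 0.34, -0.17, 0.080 and -0.0059. Over all tested genes 21.4%, 17.4%, 20% and 23.7% were higher and 18.1%, 13.3%, 14.7% and 17.2% lower, with medians of 0.10, 0.047, 0.12 and 0.20, so that nothing is read from these counts about the list. BIRC3, which encodes the ubiquitin ligase cIAP2, had the highest mean. It rose in every line, from 2.55 ± 0.606 to 412 ± 22.2 CPM (SD, n = 2) in RT112 (log2 fold change 7.33, SE 0.34) and from 223 ± 19.0 to 1344 ± 45.9 CPM in 253J cells (2.59, SE 0.27), with 2.43 in J82 and 1.64 in TCCSUP cells, where adjusted p was 9.48e-05 by edgeR. DEDD, a death effector domain gene, had the lowest mean, at -0.70 in J82 and -0.78 in TCCSUP cells, both called. FADD, the adaptor itself, named after its values were seen, was called only in J82 cells (log2 fold change -0.59, adjusted p = 0.00886 by edgeR).

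Of 15 downstream caspases and genes of the mitochondrial arm, 6 were higher and 2 lower in 253J, 2 and 3 in J82, 1 and 2 in RT112, and 4 and 3 in TCCSUP cells, with medians of 0.15, -0.13, 0.011 and 0.096. Against the shares of all tested genes (21.4%, 17.4%, 20% and 23.7% higher, 18.1%, 13.3%, 14.7% and 17.2% lower) nothing is read from these counts either. CASP9, the initiator caspase of the mitochondrial arm, rose by 1.70 in 253J, 1.07 in J82 and 1.75 in TCCSUP cells and was at 0.011 in RT112 cells on the log2 scale. BIRC5 (survivin), a gene of dividing cells, fell by 2.37 in 253J, 1.43 in J82 and 3.06 in TCCSUP cells and was at -0.63 in RT112 cells (adjusted p = 0.109 by edgeR).

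FAS and TNFRSF10B are known targets of p53, and TNFRSF10B also of the stress factor encoded by DDIT3, so genes of both kinds were listed. Of 14 p53 targets, 3 were higher and 5 lower in 253J, 6 and 1 in J82, 5 and 2 in RT112, and 6 and 3 in TCCSUP cells, with medians of -0.26, 0.35, 0.28 and 0.48, where all tested genes had 21.4%, 17.4%, 20% and 23.7% higher, 18.1%, 13.3%, 14.7% and 17.2% lower and medians of 0.10, 0.047, 0.12 and 0.20. CDKN1A, the cell cycle inhibitor p21, rose by 1.29, 3.41 and 2.21 in 253J, J82 and TCCSUP cells on the log2 scale and was at 0.26 in RT112 cells (adjusted p = 0.411), while TP53I3 fell in all 4, by 0.90 in J82 to 2.22 in TCCSUP cells (edgeR). Among 13 genes of the stress response, 4 were higher and 4 lower in 253J, 1 and 5 in J82, 7 and 3 in RT112, and 2 and 4 in TCCSUP cells, with medians of -0.28, -0.24, 0.57 and -0.22, beside the same shares and medians of all tested genes. ATF3 had the highest mean, with called rises of 1.13 in 253J and 3.58 in RT112 cells, and XBP1 the lowest, with called falls of 1.39 to 2.59 in all 4 lines. DDIT3, named after its values were seen, rose by 2.60 in 253J, 1.20 in RT112 and 1.04 in TCCSUP cells and fell by 1.00 in J82 cells. TNFRSF10B, beside it, was called lower in 253J cells, a call that did not hold under all alternatives, and was not called in the others. A link between DDIT3 and TNFRSF10B was not tested.

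Interferon-induced genes were listed because TNFSF10 is one of them by background knowledge. Of the 18, 17 were lower in J82 (13.3% of all tested genes) and 16 in TCCSUP cells (17.2%) and none higher (17.4% and 23.7%), with medians of -3.23 and -2.62 against 0.047 and 0.20 over all tested genes. In the other lines 5 were higher and 6 lower in 253J (21.4% and 18.1% of all tested genes) and 4 higher and 3 lower in RT112 cells (20% and 14.7%), with medians of 0.018 and -1.09 over genes off the floor and of 0 and -0.84 as fitted. TNFSF10 fell by 1.72 and 1.53 in J82 and TCCSUP cells and by 2.34 and 1.79 in 253J and RT112 cells, and its change did not pass the test of a difference between lines (adjusted p = 0.413 by edgeR). IFIT3, with the lowest mean, had log2 fold changes of -2.47, -4.66, -1.86 and -5.34 in 253J, J82, RT112 and TCCSUP cells, called in all but RT112. IFI6, with the highest, rose by 1.94 in 253J and 3.05 in RT112 cells and fell by 1.5 in J82 and 1.42 in TCCSUP cells.

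The genes whose log2 CPM followed each of the 9 most closely over the 16 libraries are given as a description only, since the libraries of a line share its background. BID was followed by TSPO (Pearson's r = 0.982) and GTF2I, TNFRSF10B by TENM4 (0.980) and PXDN, FAS by ADAM17 (0.976) and TMX4, TNFRSF10D by CDH6 (0.962) and RNF167, TNFSF10 by SNHG29 (0.953) and COL4A1, CFLAR by TRIP6 (0.952) and GPATCH4, TNFRSF10A by ZNF767P (0.947) and MAT2A, CASP8 by ZHX2 (0.941) and HLA-E, and TNFRSF10C by ARLNC1 (0.900) and APBB3. None of the 9 was among the closest genes of another.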

How the data were processed

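RNA of 16 cultures of 4 BC cell lines was sequenced after ribosomal RNA removal with a stranded total RNA kit. The authors deposited 1 table of raw counts per gene symbol. The submitters' processing notes name HISAT2, StringTie and GRCh37, and the counting tool and its strand setting are not given in the sources used here. Groups and replicate numbers came from the labels, and the study describes the replicates as independent biological ones. Gene models, overlaps and exon lengths came from GENCODE v29 and upstream sequences from RefSeq (GRCh38.p14), neither being the build of the counts, so they served for names, neighbours, lengths and sequence only.

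From the deposited counts, edgeR 4.0.16 (R 4.3.3) was fitted to all 16 libraries and 8 groups with TMM scaling, the filterByExpr count minimum and the quasi-likelihood test, with Benjamini-Hochberg adjustment over all 21297 tested genes in each contrast. A gene was called at an adjusted p under 0.01, and past 4-fold with a log2 fold change above 2 or below -2 in addition. CPM is given as mean ± SD of 2 libraries, and a level at or under 3 counts in every library of a group was taken as the floor. Ratios used counts plus 0.5. With 2 libraries a group, exact tests of a gene within a line cannot reach a small p, and the spread was pooled over groups. The script was tested on simulated data. Replicates of a group differed by more than sampling noise (chi-square per degree of freedom of 10.9 to 67.1), with the largest value in J82 controls.

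The members and gene lists were chosen with earlier results of these data known. All 9 genes were named, and of each list the tested genes with the highest and the lowest mean log2 fold change and any called past 4-fold in the same direction in all 4 lines, and for each of the 9 the 2 genes with the highest correlation of log2 CPM. CASP10, TNFRSF1A, FADD and DDIT3 were named outside this rule. Of 12 other ligands and receptors, LTA was not tested. Alternatives were other scalings (relative log expression, library size alone, 7 abundant small RNA genes left out), DESeq2 1.42.0, each line alone, other count minimums and thresholds, a replicate block and leaving out each library.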

Additional observations from a re-analysis of the deposited data

Results flagged for a closer look

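The response to CM-1758 differed between the cell lines for 3 of the 9 genes by edgeR's interaction test (Benjamini-Hochberg over all tested genes), a test that 36.6% of all tested genes passed, so that the count itself is no result about these genes. For FAS the adjusted p was 2.23e-06, with log2 fold changes from -3.46 in 253J to -0.078 in J82 cells. For CFLAR it was 0.00340, with -2.11 in TCCSUP against -0.75 in RT112 cells. For TNFRSF10B it was 0.00672, with -0.54 in 253J against 0.32 in RT112 cells. Each line received its own dose, so that line and dose cannot be told apart in these differences.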

How the results depend on the processing

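No fold change of a called gene turned its direction under any alternative run. Library size alone as the scaling raised the median log2 fold change of all tested genes by 0.27, 0.15, 0.15 and 0.31 in 253J, J82, RT112 and TCCSUP, and the genes called lower numbered 3 in RT112 and 3 in TCCSUP. In RT112 there were also 3 with at least 10 counts in every library and 3 past 2-fold. With each line fitted alone, 3 were lower in J82. DESeq2 called 1 gene higher in RT112 (TNFRSF10B, log2 fold change 0.40, adjusted p = 0.00895) and 0 in TCCSUP, and the minimum of 10 counts also left 0 there, since TNFRSF10C was not tested. The causes of the other shifts were not tested.

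Leaving out each library in turn gave 5 to 6 genes lower for 253J, 4 to 5 for J82, 3 to 5 for RT112 and 3 to 6 for TCCSUP, 0 to 1 higher in TCCSUP, 4 to 6 with a common fall and 1 to 3 whose change differed between lines. A common rise was called for 0 to 1 gene (TNFRSF10C, without 253J control replicate 3). The ratio of TNFRSF10D to TNFRSF10B changed by 0.17 to 1.17 on the log2 scale and passed only without TCCSUP control replicate 2 (adjusted p = 0.0185 by the exact permutation test), but in RT112, at 0 counts of TNFRSF10D, it reflects only the 0.5 added.

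Whether same-numbered libraries were paired is not settled by these values. The correlation of same-numbered deviations was 0.053, 0.218, 0.043 and 0.017 in 253J, J82, RT112 and TCCSUP, with 1 shared number in 253J. With the replicate block, calls over all genes went from 6534 to 7024 (J82), 7397 to 7719 (RT112) and 8713 to 8812 (TCCSUP). In 253J the block rests on the 1 pair of libraries numbered 3, so its calls are not compared. Of the 9 genes, 5, 5 and 6 were then lower in J82, RT112 and TCCSUP. The common fall of FAS was lost (-1.21, adjusted p = 0.0397 by edgeR), and CASP8 was called in TCCSUP (-0.49, adjusted p = 0.00821 by edgeR). Depth limited TNFRSF10C and TNFRSF10D, whose changes below about 3 counts a library were not detectable.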
